A study of Sus scrofa with 75 samples.

Results

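This comparison covers the microRNAs (miRNAs) of 5 pigs exposed to topsoil, each measured at 20 days of age, the last day of exposure, and again at 56 days of age. Its members are 10 small RNA libraries, those named topsoil at day 20 and at day 56, out of 39 miRNA libraries and 75 samples of both RNA types in the series. The treatment, the pig and the age were taken from the sample descriptions, which the column names match. In the sample characteristics, treatment and age both match the description for 3 of the 10 libraries, so the values rest on the descriptions.

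The RNA came from peripheral blood mononuclear cells (PBMCs), the lymphocytes and monocytes that a density gradient separates from whole blood. All pigs were synthetic large white pigs. Topsoil pigs received new topsoil daily between day 4 and day 20, during lactation. The control pigs (n = 8) had no soil and grew up in standard farrowing crates. Weaning took place at day 20 for both treatments, and from then to day 56 the pigs lived in a soil-free nursery. Age, weaning and the end of soil exposure therefore changed together between the samplings. Their parts in a change cannot be told apart in the topsoil pigs alone. The control pigs at the same ages shared the age and the weaning, and served as the comparison.

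miRNAs are short RNAs cut from hairpin precursors. One strand is loaded into an Argonaute protein and pairs with target mRNAs mainly through bases 2 to 8 from its 5′ end, the seed, which usually lowers the level or translation of the target. miRNAs with the same seed form a family and are expected to share many targets. In blood, miR-486, miR-451 and miR-144 are abundant in the red cell lineage, miR-142 and miR-223 mark leukocytes, and miR-150 is a miRNA of mature lymphocytes.

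The mature sequences of the miRNAs on which the results turn were read from the Sscrofa11.1 genome at their RefSeq positions. They are shown 5′ to 3′ with the seed in capitals. The first set holds the miRNA that took most of the counts at day 20, and the miRNAs with the smallest p-values.
miR-486: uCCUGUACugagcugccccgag
miR-7134-3p: aUGCGGAAccugcggauacgg
miR-9858-5p: uUCCUGAGucggacugggcu
miR-21-5p: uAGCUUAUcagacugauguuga
miR-29a-3p: cUAGCACCaucugaaaucgguua
miR-150: uCUCCCAAcccuuguaccagug
miR-142-5p: cAUAAAGUagaaagcacuacu

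The second set holds miRNAs that changed, each with relatives of the same seed that did not pass the test.
miR-30a-5p: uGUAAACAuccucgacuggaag
miR-30d: uGUAAACAuccccgacuggaagcu
miR-30e-5p: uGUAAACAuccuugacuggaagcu
miR-92b-3p: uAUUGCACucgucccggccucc
miR-92a: uAUUGCACuugucccggccugu
miR-27a: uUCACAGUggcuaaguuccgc
miR-27b-3p: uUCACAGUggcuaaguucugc

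In Sscrofa11.1, miR-486 lies at chr17:10758868-10758889 on the minus strand, in an intron of ANK1, which codes for the red cell protein ankyrin. miR-21-5p lies at chr12:36065284-36065305 on the plus strand, miR-142-5p at chr12:34609426-34609446 on the minus strand, miR-150 at chr6:54580957-54580978 on the minus strand and miR-29a-3p at chr18:18040083-18040105 on the plus strand, none of them inside an annotated gene other than their own. miR-7134-3p lies at chr5:8161126-8161146 on the minus strand in an intron of TNRC6B, which codes for a partner of Argonaute. miR-9858-5p lies between genes at chr4:51211593-51211612 on the plus strand. miR-30a-5p, at chr1:51412892-51412913 on the minus strand, is in an intron of LOC102157778.

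The authors deposited miRDeep2 read counts for each mature miRNA, without normalization. With 1 entry per mature name, a library held between 10216475 and 12991494 counts at day 20 and between 5174743 and 7455602 at day 56. Counts of miRNAs other than miR-486 went the opposite way, from between 579876 and 2653312 at day 20 to between 2816765 and 4827601 at day 56. The number of miRNAs with a read was between 140 and 220 at day 20 and between 216 and 263 at day 56. Low values at day 20 are therefore the least precise. PBMC markers were found in all 10 libraries. miR-142-5p was at least 739 CPM and miR-150 at least 1061 CPM, where CPM are counts divided by a library size scaled by the upper quartile and expressed per 1000000. Of 19 miRNAs of muscle, liver, epithelium or neurons that were looked for, 10 had no read in the 10 libraries. The most abundant was miR-9, listed under 3 names with identical counts, with 3301 reads and a mean of 27.5 CPM. miR-375 had 1198 reads.

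miR-486 took most of the counts at day 20, and its share was lower at day 56. At day 20 it took 94.6%, 74.0%, 89.2%, 95.5% and 85.8% of the counts in topsoil pigs 1 to 5. At day 56 it took 37.9%, 48.0%, 48.2%, 25.8% and 11.8% in the same pigs. Every pig was lower at day 56, and the highest day 56 share lay below the lowest day 20 share. The mean paired difference was -53.5 percentage points (SD 20.0, n = 5, from -74.0 to -26.0). An exact two-sided sign-flip permutation test gave p = 0.0625, which is the smallest value that 5 pairs can give. In the control pigs the same difference was -32.2 points (SD 25.2, n = 8, exact p = 0.015625). The change in topsoil pigs was 21.2 points more negative, but an exact permutation of the treatment labels over the 13 pigs did not separate the treatments (p = 0.1406).

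**Figure D1:**
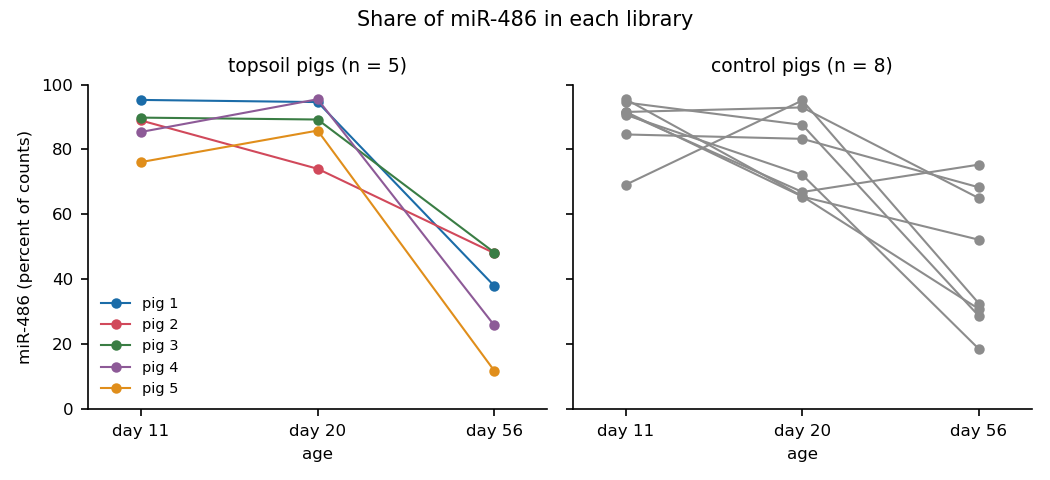
Percent of the counts of a library that came from miR-486 (y axis) at each age (x axis). Lines join the libraries of a pig, with the 5 topsoil pigs at left and the 8 control pigs at right. Topsoil libraries lay between 74.0% and 95.5% at day 20 and between 11.8% and 48.2% at day 56.

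Of the 209 miRNAs tested, 20 (9.57%) changed between day 20 and day 56 in the topsoil pigs, with Benjamini-Hochberg adjusted p-values of edgeR's quasi-likelihood test under 0.10. Of these, 13 (6.22%) rose and 7 (3.35%) fell. At an unadjusted p under 0.05 there were 44 (21.1%). The estimates leaned upwards over the whole table, with 136 above 0 (65.1%) and a median log2 fold change of 0.57, against -0.03 in the control pigs. All 13 miRNAs that rose had estimates above this median. Among the 20 called miRNAs, 14 moved in the called direction in all 5 pigs, where 35 of all tested were higher in all pigs (16.7%) and 12 lower in all pigs (5.74%). The day 20 and day 56 libraries did not overlap for 13 of the 20, against 28 of the 209 tested (13.4%), of which 21 lay higher (10.0%) and 7 lower (3.35%) at day 56. The fit uses the spread of all 39 libraries, and 1 pig can decide a call. Without topsoil pig 4, 5 miRNAs remained called, and without topsoil pig 5, 6 remained. The balance of rises and falls depended on the scaling. Under TMM scaling 7 rose and 8 fell, and on total counts alone 105 rose and 1 fell. miR-21-5p, miR-29a-3p, miR-7134-3p and miR-486 were called under all 25 alternatives. miR-150 and miR-9858-5p were called under 24, miR-142-5p under 23, miR-192 and miR-30a-5p under 21, and miR-143-3p and miR-30a-3p under 20. miR-27a was called under 18, miR-151-5p, miR-660 and miR-92b-3p under 17, and miR-26b-5p and miR-7139-5p under 16. The least stable calls were miR-424-3p, under 13 of the 24 alternatives that tested it, and miR-1306-5p and miR-151-3p, each under 11 of 25.

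**Figure D2:**
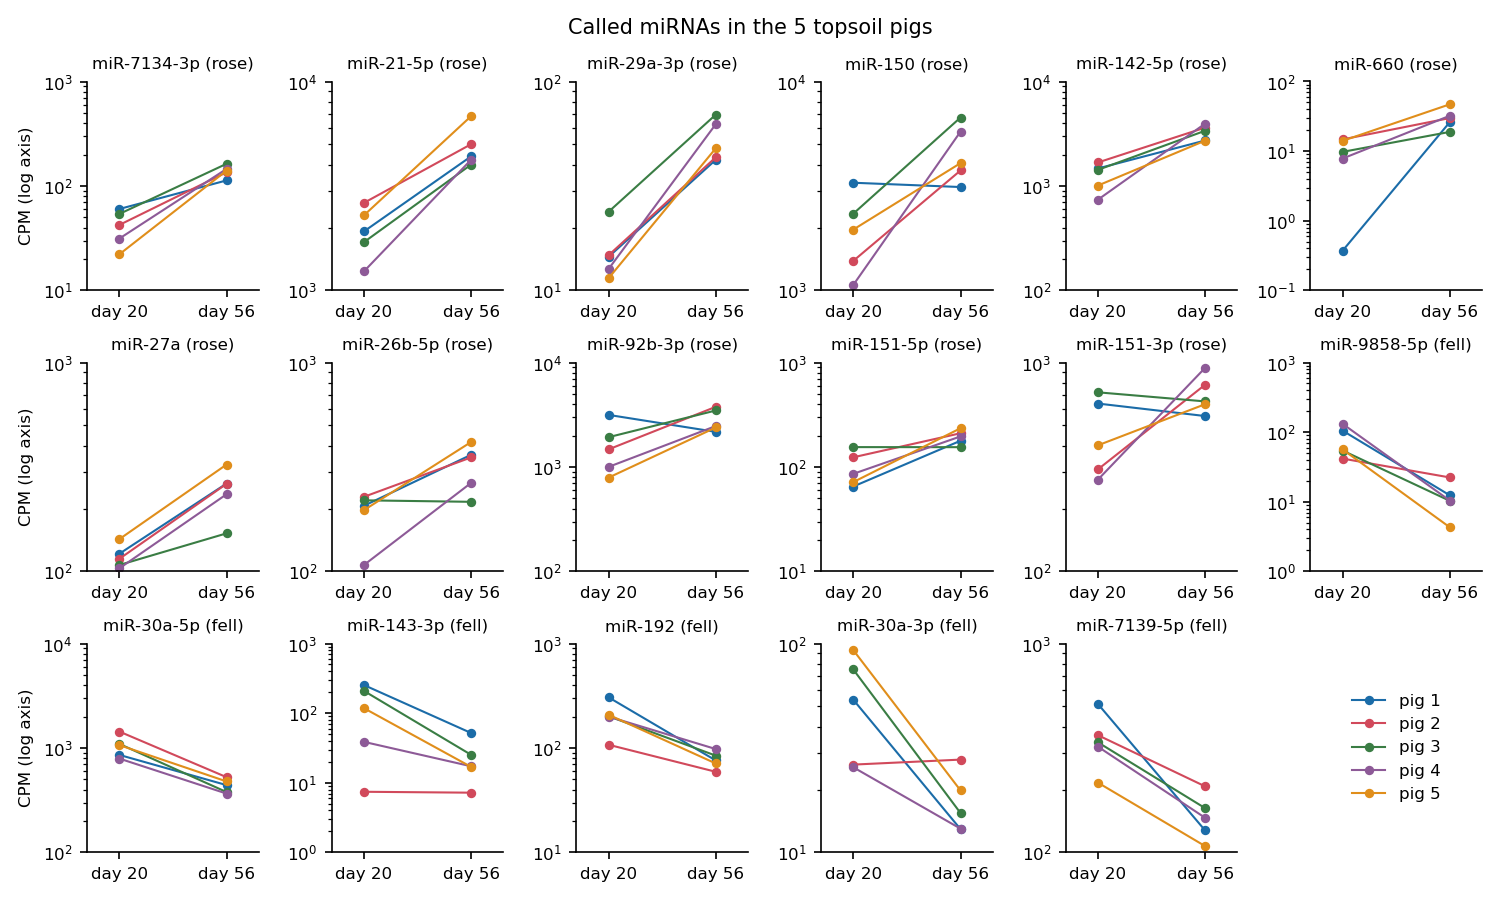
Level of 17 called miRNAs in each topsoil pig (y axis, CPM on a log axis, range set for each panel) at day 20 and day 56 (x axis). Lines join the values of a pig, and panels give first the miRNAs that rose and then those that fell. miR-486 and the 2 called miRNAs with a mean under 10 CPM are left out. miR-21-5p rose from between 1234 and 2624 CPM to between 4004 and 6830 CPM.

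Among miRNAs of immune cells, miR-21-5p, miR-150 and miR-142-5p rose. miR-21-5p, which is induced on activation of many immune cells, was at 1915, 2624, 1702, 1234 and 2287 CPM at day 20 in pigs 1 to 5, and at 4385, 5012, 4004, 4225 and 6830 CPM at day 56. All day 56 values lay above all day 20 values, and the day 11 values, from 1608 to 2272 CPM, lay with those of day 20. The log2 fold change was 1.38 (SE 0.31, adjusted p = 0.005664). In the control pigs it was 0.46 (SE 0.23, adjusted p = 0.2626), and the difference between treatments, 0.92 (SE 0.37), did not pass the test (adjusted p = 0.2789). The passenger strand of the same hairpin, miR-21-3p, had a log2 fold change of 2.06 with a wide error (SE 1.33, adjusted p = 0.3601), one of 2.74 without topsoil pig 1 and one of 1.54 without pig 4.

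miR-142-5p, a miRNA made across the blood lineages, was at 1471, 1678, 1426, 739 and 1009 CPM at day 20 and at 2725, 3619, 3378, 3954 and 2715 CPM at day 56. The ages did not overlap, and the log2 fold change was 1.41 (SE 0.38, adjusted p = 0.02509). Its partner from the other arm, miR-142-3p, was between 9.90 and 54.6 CPM at day 20 and in the narrower range of 50.7 to 61.5 CPM at day 56. Its log2 fold change was 0.45 (SE 0.68, adjusted p = 0.7391). miR-223, of granulocytes and monocytes, was between 11.5 and 50.9 CPM at day 20 and between 37.7 and 47.9 CPM at day 56 (log2 fold change 0.68, SE 0.51, adjusted p = 0.4423). The leukocyte list thus had 1 of 3 members that rose and none that fell, where 6.22% of all tested rose and 3.35% fell. Its summed share of the counts other than miR-486 went from between 0.495% and 1.12% to between 1.11% and 1.91%. Most of this sum was miR-142-5p, which alone held between 0.460% and 1.06% at day 20 and between 1.07% and 1.86% at day 56.

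miR-150, which is switched on as lymphocytes mature, was at 3277, 1384, 2329, 1061 and 1955 CPM at day 20 and at 3125, 3750, 6722, 5754 and 4067 CPM at day 56. Pig 1 started as high as it ended, and the other 4 pigs rose. The log2 fold change was 1.31 (SE 0.35, adjusted p = 0.0249). The control pigs rose by a like amount, 1.40 (SE 0.27), in 8 of 8 pigs, with a difference between treatments of -0.09 (SE 0.42). miR-342, the other lymphocyte miRNA of the list, had an estimate on the other side of 0, at -0.67 (SE 0.47, adjusted p = 0.4123). miR-146a-5p, induced by NF-κB and a brake on innate signalling, had an estimate of 0.79 (SE 0.34, adjusted p = 0.1508). Of 7 tested miRNAs on the list of activated immune cells, miR-21-5p alone was called (9.57% of all tested). Of these 7 estimates, 6 were above 0, where 65.1% of all tested were. Their median of 1.38, against 0.57 over all tested, is the estimate of miR-21-5p itself. Above it lay miR-21-3p of the same hairpin, miR-155-5p (1.62, SE 1.66) and miR-212 (1.59, SE 2.06). The last 2 had means of 1.03 and 0.28 CPM. miR-132 had an estimate of -2.57 (SE 1.51).

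The red cell lineage list had 1 of 3 members that fell (3.35% of all tested) and all 3 estimates below 0. On the scaled counts, miR-486 had a log2 fold change of -4.05 (SE 0.89, adjusted p = 0.00489). Its size depends on the scaling, and with total counts alone it was -1.42 (adjusted p = 0.02427). miR-451, whose hairpin is cut by Argonaute itself, was at 218, 694, 283, 509 and 413 CPM at day 20 and at 366, 195, 136, 148 and 111 CPM at day 56. It was lower in 4 pigs and higher in pig 1, with an estimate of -1.35 (SE 0.54, adjusted p = 0.1309). miR-144, from the same transcript, had an estimate of -1.60 (SE 1.04, adjusted p = 0.3707), and one of -2.38 without topsoil pig 1. In the control pigs all 3 members fell (6.70% of all tested), with miR-451 at -2.59 (SE 0.43). The ratio of miR-486 to miR-451 counts was between 647 and 20034 at day 20 and between 306 and 1392 at day 56. In bulk samples, fewer cells of a type and less RNA per cell cannot be told apart.

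miR-7134-3p had the smallest p-value of the comparison. It was at 60.2, 42.3, 53.9, 31.3 and 22.1 CPM at day 20 and at 113, 135, 163, 145 and 140 CPM at day 56. The day 56 values were close together and all above those of day 20 and of day 11. The log2 fold change was 1.87 (SE 0.37, adjusted p = 0.003327), against 0.79 (SE 0.27, adjusted p = 0.06226) in control pigs. miR-29a-3p, of a family known to target collagen mRNAs and the DNA methyltransferases, went from 14.5, 14.7, 23.8, 12.7 and 11.4 CPM to 42.2, 43.4, 69.5, 62.5 and 47.9 CPM. Its log2 fold change was 1.95 (SE 0.47, adjusted p = 0.01058) in topsoil pigs and 1.08 (SE 0.36, adjusted p = 0.05118) in control pigs, where 8 of 8 were higher. As annotated, miR-29a-3p begins 1 base further upstream than miR-29b and miR-29c, so its bases 2 to 8 (UAGCACC) are offset from theirs (AGCACCA). Both relatives were under 10 CPM in every one of the 10 libraries.

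Other miRNAs rose with larger p-values. Under TMM scaling miR-660, miR-26b-5p and both arms of miR-151 lost their calls, and so did miR-27a when the total without miR-486 was used. miR-27a went from between 103 and 143 CPM to between 152 and 325 CPM without overlap (log2 fold change 1.06, SE 0.33, adjusted p = 0.05532). miR-26b-5p had a log2 fold change of 0.88 (SE 0.28, adjusted p = 0.05891) and was higher in 4 of 5 pigs. miR-660 was at 0.371, 14.7, 9.76, 7.83 and 14.1 CPM at day 20, the first of these from 1 read, and at 26.1, 29.8, 18.9, 32.2 and 47.1 CPM at day 56. Its log2 fold change was 2.01 (SE 0.61, adjusted p = 0.05416), while the control pigs gave -0.12 (SE 0.42). The difference did not pass edgeR's test (adjusted p = 0.1897) and passed that of DESeq2 (adjusted p = 0.03654). Without topsoil pig 1, whose day 20 value was 1 read, the log2 fold change was 1.38 and the call was lost (adjusted p = 0.1503 in edgeR's test). Both arms of the miR-151 hairpin, in an intron of the focal adhesion kinase gene PTK2, rose. The log2 fold change was 1.04 (SE 0.35, adjusted p = 0.06978) for miR-151-5p and 0.82 (SE 0.30, adjusted p = 0.09651) for miR-151-3p, which was higher in 3 pigs and lower in 2.

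miR-424-3p and miR-1306-5p, both with a mean under 10 CPM, rose from day 20 libraries of which all 5 and 3 of 5 were at 0. miR-424-3p, from the hairpin whose other arm belongs to the miR-15 and miR-16 family, had 0 counts in all 5 topsoil libraries of day 20 and in all 5 of day 11. At day 56 it had 28, 55, 20, 50 and 27 counts. Against a floor of 3 counts per library, the day 56 mean of 2.18 CPM was at least 3.80-fold higher (adjusted p = 0.08238 in edgeR's test). Control pigs ranged from 0 to 5.18 CPM at day 20 and from 0 to 1.51 CPM at day 56. miR-1306-5p, which lies in an exon of DGCR8, the cofactor that helps cut miRNA hairpins, had 0, 42, 30, 0 and 0 counts at day 20 and 119, 124, 97, 97 and 102 at day 56. Its day 11 libraries held between 14 and 54 counts, so the 3 libraries at 0 were those of day 20 (log2 fold change 4.09, SE 1.45, adjusted p = 0.09503). Under TMM scaling both lost their calls in edgeR's test (adjusted p = 0.1124 for miR-424-3p and 0.1356 for miR-1306-5p). For miR-1306-5p the log2 fold change was 5.62 without topsoil pig 2, 3.51 without pig 1, 3.40 without pig 4 and 3.28 without pig 5. The call was lost without any one of topsoil pigs 1, 4 and 5 or control pigs 2, 4, 5 and 7. The 3 libraries without miR-1306-5p were also the 3 with 168 miRNAs or fewer at day 20, and the part of depth in the result was not tested.

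miR-9858-5p had the smallest p-value among the miRNAs that fell. It was at 105, 41.7, 54.4, 131 and 56.5 CPM at day 20 and at 12.4, 22.4, 10.3, 10.4 and 4.30 CPM at day 56. Each pig was lower at day 56, and the ages did not overlap. The log2 fold change was -2.63 (SE 0.56, adjusted p = 0.004658), with -2.27 (SE 0.43) in control pigs, of which 8 of 8 were lower, and a difference of -0.36 (SE 0.65, adjusted p = 0.8955). Scaled by total counts alone, the log2 fold change in topsoil pigs was -0.37 and the call was lost (adjusted p = 0.6945). Without topsoil pig 2 it was -3.44. miR-192, an epithelial and p53-responsive miRNA that is also found in plasma, went from between 107 and 305 CPM to between 59.1 and 97.6 CPM (log2 fold change -1.49, SE 0.47, adjusted p = 0.05532). Control pigs gave -1.47 (SE 0.38). miR-7139-5p, in an intron of the cell cycle repressor gene E2F7, went from between 216 and 514 CPM to between 107 and 207 CPM (log2 fold change -1.13, SE 0.41, adjusted p = 0.09651), with -1.23 (SE 0.32) in control pigs. On total counts alone miR-192 and miR-7139-5p lost their calls too, and their estimates in topsoil pigs lay above 0, at 0.83 and 0.93.

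miR-143-3p, a miRNA of smooth muscle and fibroblasts, was at 253, 7.43, 209, 38.7 and 118 CPM at day 20 and at 51.8, 7.21, 25.2, 17.2 and 16.9 CPM at day 56. All 5 pigs were lower, although pig 2 barely moved and the ages overlapped. The log2 fold change was -1.93 (SE 0.58, adjusted p = 0.05232), and control pigs gave -0.22 (SE 0.45) with 4 pigs higher and 4 lower. The difference between treatments was -1.71 (SE 0.70, adjusted p = 0.283), and DESeq2 called it (adjusted p = 0.07509). The change from day 20 itself was not called by limma (log2 fold change -1.43, adjusted p = 0.2279), nor by edgeR without topsoil pig 1 (0.1503), pig 4 (0.1043) or pig 5 (0.2371). On total counts alone its estimate lay above 0, at 0.64 (adjusted p = 0.4938 in edgeR's test). Of the 12 vascular, fibroblast and platelet miRNAs in the table, 5 were tested and miR-143-3p alone was called (9.57% of all tested). miR-199a-3p and miR-199b-3p among them have identical counts and are 1 measurement. Of the 5 estimates, 4 were above 0. miR-126-5p was higher at day 56 in all 5 pigs, with 3 of 5 day 20 libraries at 0. Its log2 fold change was 4.83 (SE 1.80, adjusted p = 0.1053). miR-145-3p, from the hairpin next to miR-143, had 2 reads in the 10 libraries, and miR-145-5p and both arms of miR-214 had none. The summed share of this list was between 0.00803% and 0.101% of the counts other than miR-486 at day 20 and between 0.00597% and 0.0290% at day 56, and the part of other cell types in the result was not tested.

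Of the 5 tested miR-30 members with the seed GUAAACA, miR-30a-5p fell and the other four did not pass the test. miR-30a-5p was at 858, 1436, 1094, 792 and 1066 CPM at day 20 and at 441, 525, 378, 366 and 478 CPM at day 56 (log2 fold change -1.22, SE 0.37, adjusted p = 0.05232). miR-30d, which differs from it only after the seed, had an estimate of 0.70 (SE 0.27, adjusted p = 0.1223), and miR-30e-5p one of 0.56 (SE 0.40, adjusted p = 0.4379). The ratio of 2 miRNAs within a library does not depend on how libraries are scaled. The ratio of miR-30a-5p to miR-30d was 0.858, 1.19, 0.744, 0.763 and 0.746 at day 20 and 0.210, 0.276, 0.289, 0.182 and 0.172 at day 56. No day 56 ratio came near the day 20 range, and the day 11 ratios were between 0.612 and 1.24. In control pigs the ratio was between 0.358 and 1.16 at day 20 and between 0.179 and 0.603 at day 56. The ratio to miR-30e-5p was between 2.51 and 4.16 at day 20 and between 0.585 and 1.27 at day 56 in topsoil pigs. These ratios were chosen after the values were seen and are given as a description.

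The other arm of the same hairpin, miR-30a-3p, fell as well, by 1.42 on the log2 scale (SE 0.47, adjusted p = 0.06431), with 4 pigs lower and pig 2 higher. miR-30a and miR-151 were the hairpins with both arms called, of 37 with both arms tested. miR-30e-3p, which has the seed of miR-30a-3p, had an estimate of -0.53 (SE 0.30, adjusted p = 0.3016). Over the whole miR-30 list, none of 10 rose and 2 fell, the arms of 1 hairpin, with a median of 0.03. Of all tested, 6.22% rose and 3.35% fell, with a median of 0.57.

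The seed AUUGCAC was shared by 4 tested miRNAs, of which miR-92b-3p rose (6.22% of all tested). It was at 3150, 1474, 1928, 1002 and 791 CPM at day 20 and at 2167, 3767, 3474, 2466 and 2388 CPM at day 56 (log2 fold change 0.92, SE 0.30, adjusted p = 0.05891). Pig 1 was lower at day 56 and the other 4 were higher, and the call was lost with the total without miR-486 (adjusted p = 0.1449). miR-92a, of the miR-17-92 cluster, was between 1994 and 2826 CPM at day 20 and between 1999 and 2997 CPM at day 56, with an estimate of -0.01 (SE 0.30). The ratio of miR-92b-3p to miR-92a was 1.15, 0.574, 0.722, 0.354 and 0.397 at day 20 and 0.970, 1.26, 1.74, 1.04 and 0.993 at day 56, higher in 4 of 5 pigs. In control pigs it was between 0.220 and 0.659 at day 20 and between 0.745 and 1.998 at day 56, without overlap. For the seed UCACAGU, miR-27a rose as given above, while miR-27b-3p had an estimate of -0.02 (SE 0.47). The ratio of miR-27a to miR-27b-3p was higher at day 56 in all 5 topsoil pigs, from between 0.0314 and 0.280 to between 0.180 and 0.299, with overlap. In control pigs it was between 0.0212 and 0.259 at day 20 and between 0.0828 and 0.263 at day 56. The ratios to miR-92a and miR-27b-3p were also chosen after the values were seen and are given as a description.

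**Figure D3:**
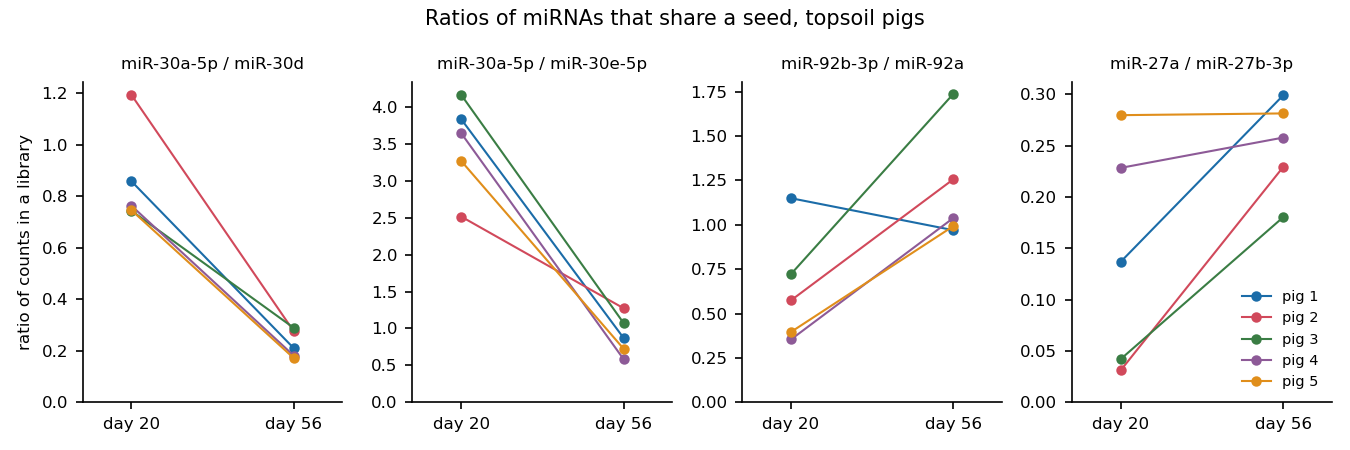
Ratio of the counts of miRNA pairs with the same seed (y axis, linear, from 0) at day 20 and day 56 (x axis) in the 5 topsoil pigs, each pig a line. The ratio of miR-30a-5p to miR-30d lay between 0.744 and 1.19 at day 20 and between 0.172 and 0.289 at day 56.

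Of the 10 miRNAs with the highest mean share at day 20, miR-486 alone was called, and of the 10 highest at day 56, miR-486, miR-21-5p and miR-150 were called, where 9.57% of all tested were. let-7f-5p, of the let-7 family known for restraining proliferation, held 25.9% ± 6.14 (SD, n = 5) of the counts other than miR-486 at day 20 and 29.7% ± 8.23 at day 56. miR-181a, which tunes lymphocyte receptor signalling, held 20.7% ± 7.18 and 28.7% ± 4.99. On the scaled counts its estimate was 0.75 (SE 0.31, adjusted p = 0.1508). let-7a was at rank 3 at both ages with 10.2% ± 2.18 and 6.82% ± 0.735. miR-191 held 7.99% ± 2.31 and 3.98% ± 0.860, and its estimate was -0.72 (SE 0.42, adjusted p = 0.305). miR-182, of a cluster induced on lymphocyte activation, held 5.79% ± 3.11 and 2.18% ± 2.31, with 1 day 56 library at 6.29% and an estimate of -1.63 (SE 0.71, adjusted p = 0.1575). miR-21-5p moved from rank 12 to rank 7 and miR-150 from rank 13 to rank 8 among these miRNAs.

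Over all 209 tested, 9.57% were called and the median log2 fold change was 0.57, so that lists of this size hold few calls or none at that share. Several lists held no call in either direction. These were the let-7 family (10 tested, estimates from -0.43 to 0.72 for the 8 members with the seed GAGGUAG), the miR-181 family (4), miR-99, miR-100, miR-125 and miR-10 (8), miR-221 and miR-222 (3), the abundant miRNAs of the miR-191, miR-423, miR-425, miR-103 and miR-107 list (7) and the miR-183 cluster (2). The list of the miR-17-92 cluster, its paralogues and their relatives had 1 rise among 11 tested and a median of -0.01. The rise was that of miR-92b-3p, a seed relative at chr4:94624293-94624314 outside these clusters. The miR-23, miR-27 and miR-24 list had 1 rise of 7. The miR-26 and miR-29 list had 2 rises of 6 and a median of 1.08. The miR-15 and miR-16 list had 1 rise of 4, miR-424-3p, and a median of 0.63, which is the same with miR-424-3p at its lower bound. The other tissue list had 4 tested and no call. On it, miR-375, an epithelial and endocrine miRNA, was at 138 CPM in pig 3 and 42.0 CPM in pig 5 at day 20, and at or below 1.56 CPM in the other 8 libraries. miR-10b was lower in all 5 pigs without overlap, from between 18.6 and 70.6 CPM to between 5.89 and 15.1 CPM. It just missed the test (log2 fold change -1.97, SE 0.73, adjusted p = 0.1053). Control pigs gave -0.14 (SE 0.61), with 4 pigs higher and 4 lower. Among estimates above 0, miR-532-3p (adjusted p = 0.1005) and miR-126-5p (0.1053) missed edgeR's test as narrowly. Their day 20 libraries were at 0 in 5 and 3 of the 5 topsoil pigs.

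**Figure D4:**
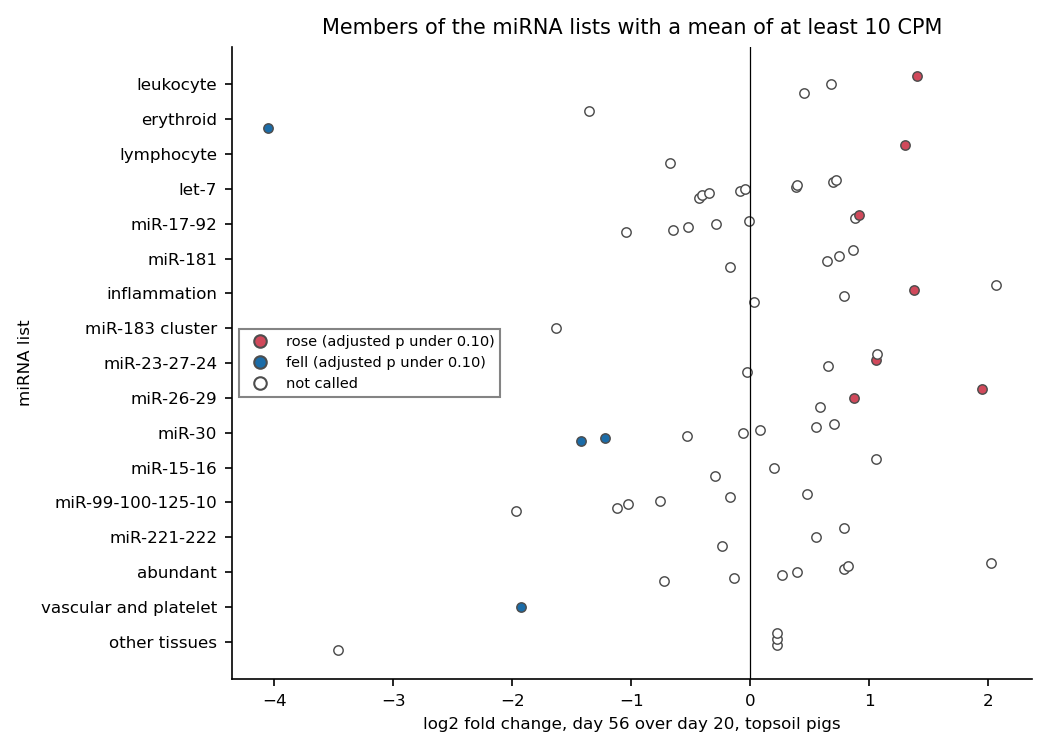
Log2 fold change of topsoil pigs, day 56 over day 20 (x axis), for the members of each miRNA list (y axis) with a mean of at least 10 CPM, each point a miRNA and filled where it passed the test. Calls were spread over the lists with at most 2 in any of them, such as miR-30a-5p and miR-30a-3p at -1.22 and -1.42.

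The control pigs answer whether such changes also occurred without soil. In them, 26 of the 209 miRNAs (12.4%) changed from day 20 to day 56, 12 up (5.74%) and 14 down (6.70%). Of the 20 calls in topsoil pigs, 17 had the same sign in control pigs, against 141 of all 209 tested (67.5%). Called the same way in both were 10 miRNAs, which is 50% of the topsoil calls and 38.5% of the control calls. All 26 control calls had the same sign in the topsoil pigs. The exceptions among the topsoil calls were miR-660, miR-424-3p and miR-1306-5p. Over the 116 miRNAs with a mean of at least 10 CPM, the log2 fold changes of the treatments had a Pearson r of 0.63 and a Spearman rho of 0.64. Over all 209 tested, r was 0.18 and rho 0.30. Both are across miRNAs, which are not independent replicates and share a fit.

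The difference between the changes of the treatments was tested in the same fit. No miRNA passed (0 of 209 in edgeR), with 24 (11.5%) at an unadjusted p under 0.05. DESeq2 called 12 and limma 5, of which 4 by both, and 5 of the DESeq2 calls and 0 of the limma calls had a mean of at least 10 CPM. The smallest p-values belonged to miR-424-3p, miR-1306-5p and miR-22-3p, each with an adjusted p of 0.1894 in edgeR's test. All of them were among the DESeq2 calls, with adjusted p-values of 3.218e-08, 0.002185 and 0.09778, and limma also called miR-424-3p (0.01704) and miR-1306-5p (0.003505). miR-22-3p, abundant in myeloid and erythroid cells, was between 360 and 555 CPM at day 20 and between 661 and 847 CPM at day 56 in topsoil pigs, without overlap. Its estimate was 0.58 (SE 0.29) in topsoil pigs and -0.54 (SE 0.22) in control pigs, a difference of 1.11. For miR-486 the difference was -1.98 (SE 1.04, adjusted p = 0.4029). A p that misses the threshold does not show that the treatments changed alike.

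**Figure D5:**
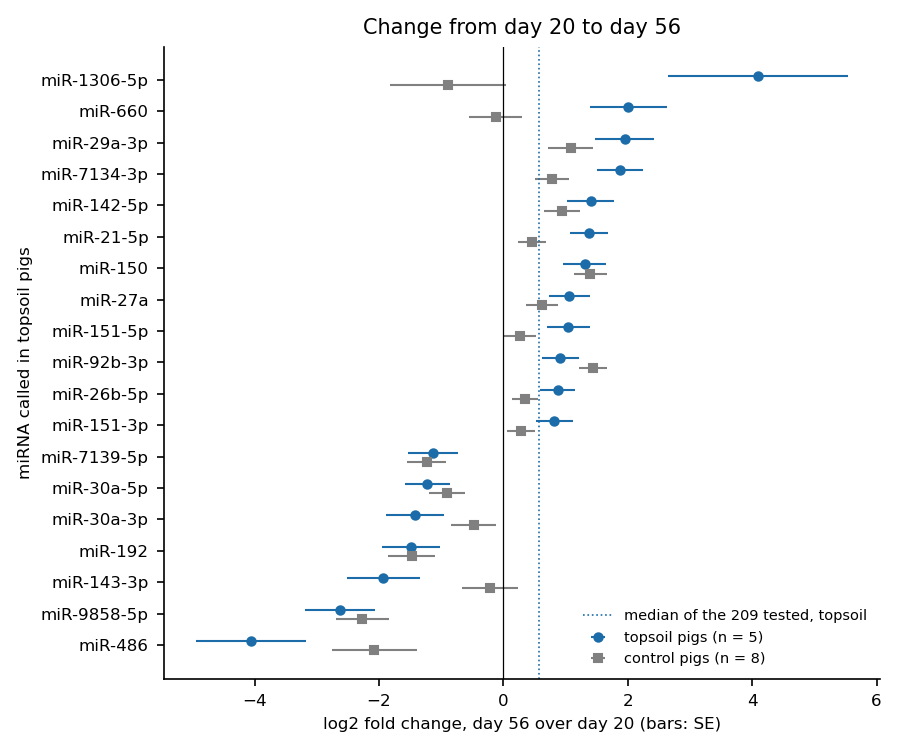
Log2 fold change from day 20 to day 56 (x axis) for 19 of the 20 miRNAs called in topsoil pigs (y axis), in topsoil pigs (circles) and control pigs (squares), with bars for the SE and a dotted line at the median of 0.57 of the tested miRNAs in topsoil pigs. miR-424-3p is left out because its day 20 libraries were at 0. miR-150 gave 1.31 and 1.40, while miR-660 gave 2.01 and -0.12.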

How the data were processed

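Small RNA of PBMCs was sequenced in 13 pigs (8 control, 5 topsoil), each at day 11, day 20 and day 56. The authors aligned reads to Sscrofa11.1 with miRDeep2 and deposited the read counts per mature miRNA and precursor, unnormalized. The submitters' processing notes list FastQC 0.11.3 and Trim Galore 0.4.5. The table has 479 entries for 457 mature names, and the entry with the largest total was kept for each name. Of 317 names with a read, 209 were tested, namely those present in 17 or more of 39 libraries with more than 2 reads on average.

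Library sizes were scaled to the 75% quantile, and models were fitted in R 4.3.3 with edgeR 4.0.16 (quasi-likelihood F test, Benjamini-Hochberg adjustment, false discovery rate 0.10) with pig as a fixed block, age, treatment by age and the RNA quality index (RQI). The authors used a negative binomial mixed model with pig as a repeated measure. The SE is the absolute log2 fold change divided by the square root of F. Because libraries dominated by miR-486 have a small upper quartile, CPM of miR-486 can exceed 1000000, and its share of the counts is given in place of them. The PCR reads carry no stated molecular identifiers, so counting error understates the error of low counts. By the descriptions each pig was sampled at both ages, so pig was fitted as a block. Deviations of the same pig at day 20 and day 56 correlated between -0.15 and 0.19. Their mean was 0.020, against -0.003 for different pigs, so the values do not by themselves show the pairing.

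The members and lists were chosen with earlier results of these data known. The miRNAs named are up to 10 in each direction with the smallest p-value (10 that rose and all 7 that fell), up to 3 most abundant members of each list, the top 3 by p-value for the treatment difference, and the 10 most abundant. Other miRNAs named, such as miR-151-3p, miR-10b, miR-375, miR-30e-5p, miR-29b, miR-29c and miR-145, were chosen after their values were seen. Mature sequences and positions came from RefSeq on Sscrofa11.1, which gave a position for 179 of the 209 tested and 17 of the 20 called. Identical counts were found for miR-9, miR-9-1 and miR-9-2, for miR-199a-3p and miR-199b-3p, and for miR-339, miR-339-5p and miR-4334-3p.

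The fit was tested on simulated data for topsoil pigs, day 56 against day 20, over 209 miRNAs with 40 changed. It called 6 of those changed 2-fold, 18 of those changed 4-fold and 19 of those changed 8-fold, with 1, 2 and 3 unchanged miRNAs called. With none changed it called 0. Each setting was 1 draw, without effects of pig or age, with as many rises as falls and with miR-486 left unchanged. The simulation therefore could not show how the fit handles the fall of miR-486 or the upward lean of the estimates. Alternatives were TMM and total-count scaling, the total without miR-486, DESeq2 1.42.0, limma 3.58.1 (random pig effect), other filters, no RQI, litter size by age, no replicate block, the 10 libraries alone, every entry, and each pig left out. The mRNA libraries were not used here.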

Additional observations from a re-analysis of the deposited data

Results flagged for a closer look

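In each group of 5 topsoil libraries, a library was singled out where it stood far from the nearest other library relative to the spread of the group, which chance brings about in about 1 of 20 groups. Of 42 groups searched, 3 were singled out, against 2.1 expected. The total count of topsoil pig 2 at day 20 was low, at 10216500 against 12415400 for the next library. miR-29a-3p at day 20 was high in topsoil pig 3, at 23.8 CPM against 14.7 CPM for the next library. miR-26b-5p at day 20 was low in topsoil pig 4, at 107 CPM against 196 CPM for the next library. Without topsoil pig 4, the log2 fold change of miR-26b-5p was 0.73 (adjusted p = 0.2653 in edgeR's test), and it was no longer called.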

How the results depend on the processing

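The count of changed miRNAs and the balance of rises and falls depended on the setting. The called miRNAs kept their direction under every alternative except total counts alone, where 15 of 20 kept it. Against 13 up and 7 down, TMM normalization gave 7 and 8, the total without miR-486 gave 5 and 8 (13 in all), DESeq2 18 and 18 (36), limma 27 and 6 (33), no filter 5 and 5 (10), and the use of every entry 5 and 7 (12). Total counts alone gave 105 up and 1 down (106), since this scaling moves the median of all miRNAs up by 2.07, while the other scalings moved it by -0.15 (TMM) and -0.30 (total without miR-486). No RQI gave 19 and 9, a stricter filter 18 and 8, litter size by age 11 and 8, the 10 libraries alone with the replicate block 17 and 9, and no replicate block 18 and 10. Leaving out a pig gave from 5 to 30 calls, from 3 to 21 up and from 2 to 9 down, with 12 without topsoil pig 1, 13 without pig 2, 5 without pig 4, 6 without pig 5 and 30 without control pig 6. The difference between treatments had from 0 to 1 calls when a pig was left out, 12 in DESeq2 and 5 in limma. The miR-486 share difference was from -60.3 to -48.3 points without a pig and -57.7 over every entry.

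On total counts the estimates of 5 miRNAs that fell turned positive but stayed below the median of 2.65: miR-30a-5p 0.93, miR-143-3p 0.64, miR-192 0.83, miR-30a-3p 0.88 and miR-7139-5p 0.93. The other 2 that fell stayed below 0, miR-9858-5p at -0.37 (call lost) and miR-486 at -1.42. Uncalled miRNAs with estimates below 0 turned too: miR-451 0.66, miR-144 0.23, miR-342 1.84, let-7a 1.93, let-7i-5p 2.21, miR-92a 2.15, miR-19b 1.75, miR-181d-5p 2.12, miR-182 0.83, miR-27b-3p 2.16, miR-30e-3p 1.71, miR-15b 1.90, miR-10a-5p 1.35, miR-99a-5p 1.26, miR-221-5p 1.91, miR-191 1.67 and miR-423-5p 2.01. Estimates near 0 or of few counts also changed sign elsewhere: miR-16 to -0.023 (total without miR-486) and -0.0015 (DESeq2), miR-27b-3p to 0.040 (limma), miR-92a to 0.0074 (litter size) and miR-199a-3p to -0.64 (no replicate block). Leaving out a pig, those that changed sign ranged from -0.10 to 0.15 for let-7i-5p, -0.10 to 0.054 for miR-92a, -0.37 to 0.11 for miR-181d-5p, -0.42 to 0.46 for miR-27b-3p, -0.44 to 0.023 for miR-423-5p, -0.89 to 3.01 for miR-199a-3p, -0.72 to 0.32 for miR-221-5p and -0.10 to 0.78 for miR-9, miR-9-1 and miR-9-2. The causes were not tested.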
